A study of Arabidopsis thaliana with 30 samples.

Results

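Probe sets for genes of the mitochondrial genome were followed across the cell types of the Arabidopsis root at 2 values of medium pH. They were chosen by number: a run of 55 consecutively numbered probe sets of the array that holds organelle genes, less the 9 that the platform annotation maps to plastid-encoded genes. This left 46 of the 22810 probe sets on the array. The rule used no measured value, although it was set with earlier results of these data known. The array was the Affymetrix ATH1, on which a probe set is a group of short probes for a transcript. It was hybridised 30 times with amplified RNA of sorted root cells, 3 arrays for each of 5 cell types at pH 4.6 and at pH 5.7.

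All plants were of ecotype Columbia and carried a GFP reporter, and each cell type came from 1 marker line at both pH values. Columella root cap was sorted from Pet111::GFP and epidermis with lateral root cap from pWER::GFP. Cortex came from pCOR315.1::GFP, endodermis with quiescent center from pSCR::GFP, and stele from pWOL::GFP. Below these are called columella, epidermis, cortex, endodermis and stele. At 5 days, seedlings spent their last 24 h on new medium, either of pH 4.6 or, as the control, of pH 5.7. All had grown on pH 5.7 medium until then. Both media held Murashige and Skoog salts, 1% sucrose and 3 mM of the buffer DMG, and the roots were 6 days old when their cells were protoplasted. A sorted fraction is defined by where its promoter drives GFP. The labels do not say whether replicates were separate cultures, so the spread behind each p-value is that of these samples and may be technical.

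As background, mitochondria keep a small genome of their own, which in plants encodes subunits of the respiratory chain, proteins that attach heme to cytochrome c, ribosomal proteins, a maturase and a transport protein. The other respiratory chain subunits, and the RNA polymerases, splicing factors and nucleases that act on mitochondrial RNA, are encoded in the nucleus and imported. Plant mitochondrial transcripts are spliced and edited, and a poly(A) tail on them marks RNA for decay. In Arabidopsis the nuclear chromosome 2 carries a large, nearly identical copy of mitochondrial DNA, so probes for a mitochondrial gene can also bind RNA from that copy.

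The annotation gave a single mitochondrial gene for 12 of the 46 probe sets. They were 5 subunits of complex I, the NADH dehydrogenase (nad4, nad4L, nad6, nad7 and nad9), 1 subunit of complex IV, cytochrome c oxidase (cox2), 4 cytochrome c maturation proteins (ccmB, ccmFC, ccmFN1 and ccmFN2), the maturase matR and the transport protein mttB. The annotation's older symbols ccb206, ccb452, ccb382, ccb203 and orfX were updated to ccmB, ccmFC, ccmFN1, ccmFN2 and mttB through the TAIR10.1 annotation. Of the others, 1 probe set had 2 genes (rps3 and rpl16, proteins of the mitochondrial ribosome), 4 had nuclear loci on chromosome 2 and 29 had no gene in the table, so these go by their number. Of those with no gene, 244941_at and 244942_at are numbered just after the dropped plastid probe sets, and whether they are mitochondrial was not settled here. Neither had a pH change past the threshold, and 244941_at is one of the members counted as lower in columella below. The suffix of 12 members marks probes that match more than 1 transcript, nad6, ccmFC, matR and mttB among them. RNA of the mitochondrial genes and of their nuclear copies could therefore not be told apart, and no sequences were used here to separate them.

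Signals are MAS5 intensities on a linear scale, scaled to the same trimmed mean on every array, so a value is a share of an array's RNA and not an amount per cell. Fewer cells of a type, fewer mitochondria per cell and less RNA per mitochondrion cannot be told apart in such samples. Differences are on the scale of log2(signal + 11.9) and are given ± SE of a limma fit to all 30 arrays. A signal ± SD is over 3 arrays where no n stands beside it. A probe set was tested where it lay above percentile 40 of its array on at least 3 arrays, and p-values were adjusted by Benjamini-Hochberg across all 17038 probe sets so kept, with a threshold of 0.05. Of the 46 members 36 were tested, among them all 12 with a single mitochondrial gene. The 10 that were not tested had no gene in the table, and 5 of them were above the limit on 0 arrays. No tested member owed its place to a single group, although 8 were above the limit on only 3 to 9 arrays.

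Array medians ran from 43.8 to 71.7, and arrays of a group correlated with r from 0.957 to 0.981 over all probe sets. Of 25 listed cell type markers 9 had a probe set, 0 of them for columella, and 7 of the 9 were highest in the cell type they mark. AT1G62500, listed for cortex, was at 8.74 to 17.1 in every cell type, and PHV, listed for stele, had a mean signal of 471 in columella and 235 in stele (n = 6 each). The summed signal of 2 epidermis markers ran from 1046 to 8896 in epidermis and from 548 to 3303 in stele, against at most 212 in the other cell types. The single endodermis marker, GSO1, ran from 3008 to 7232 in endodermis, 291 to 2698 in cortex and 993 to 1814 in stele. In their own cell types the epidermis, cortex and endodermis markers were lower at pH 4.6 than at pH 5.7 without overlap. The epidermis sum was 1046 to 1559 against 2809 to 8896, the sum of 4 cortex markers 2646 to 3885 against 6920 to 7904, and GSO1 3008 to 5973 against 6901 to 7232. The sum of the 2 stele markers went the other way in stele, at 545 to 986 at pH 4.6 against 311 to 474 at pH 5.7. The part of other cells, and of these marker differences, in the values below was not tested.

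The members together took 0.0297% to 0.272% of the summed signal of an array. In 4 arrays this share was more than 1.4 times that of the middle array of their group. They were endodermis replicate 2 and epidermis replicate 2 at pH 5.7, with shares of 0.272% and 0.219%, and endodermis replicate 1 and epidermis replicate 3 at pH 4.6, with 0.191% and 0.264%. The 4 arrays were also the highest of their groups for plastid-encoded genes, which took 1.55%, 1.26%, 1.03% and 0.813% of their signal. The counts of members called are given with and without these arrays, and so are single calls that were lost without one of them.

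**Figure D1:**
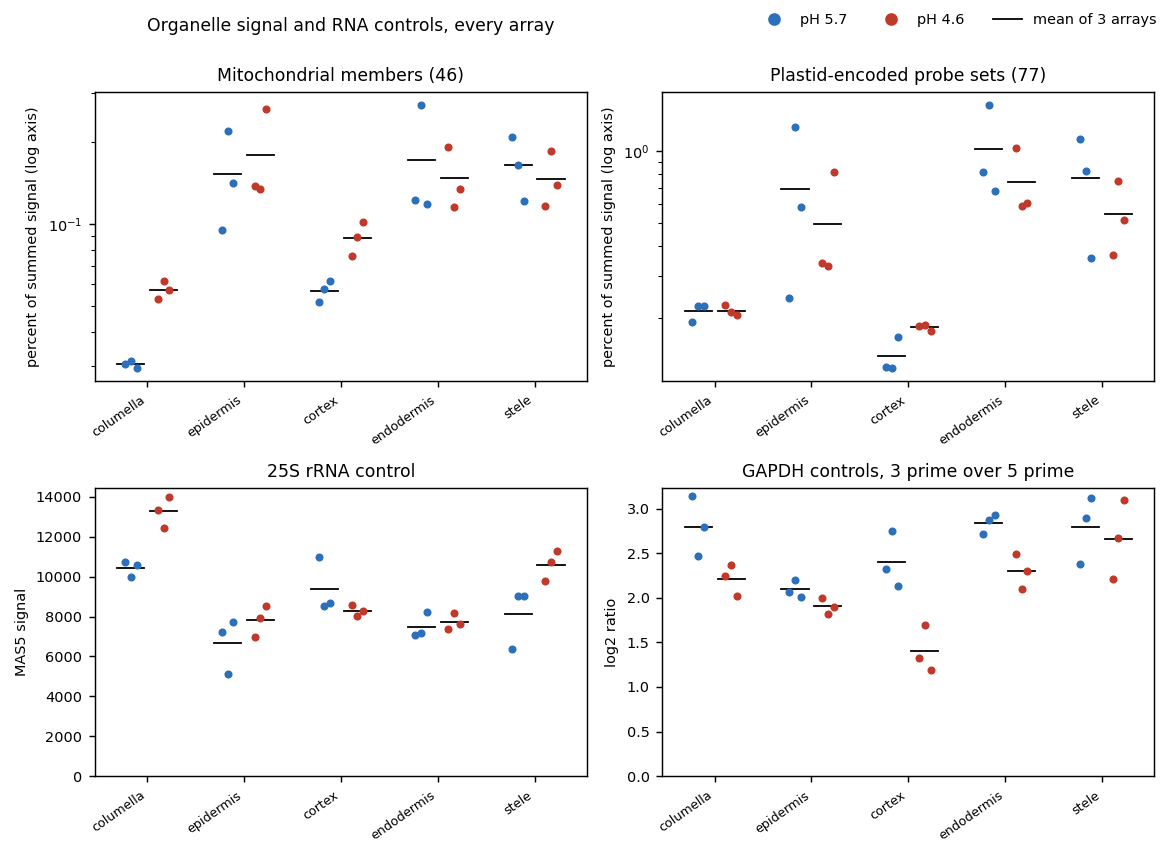
Every array by cell type and pH, with the mean of 3 as a bar: share of summed signal in the 46 members and in 77 plastid-encoded probe sets (log axes), the signal of the 25S rRNA control, and the log2 ratio of 3 prime to 5 prime GAPDH controls. Columella and cortex have the lowest shares of both organelles, and the scatter in epidermis, endodermis and stele is shared by both organelles.

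The first question was how mitochondrial transcripts differed between cell types at the control pH. They were lowest in columella, next lowest in cortex, and higher in epidermis, endodermis and stele. An F test across the 5 cell types passed for 28 of the 36 tested members, against 82.7% of all probe sets tested, and for all 12 with a single gene. Columella had the lowest mean of the 5 cell types for 25 members and cortex for the other 11. Both were the lowest pair for 30 of 36 members at pH 5.7, and for 30 of 36 at pH 4.6 as well. These orders were not counted over all tested probe sets, so whether they are particular to the members cannot be said.

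Each cell type was then set against the mean of the other 4 at pH 5.7. In columella 25 members were lower and 0 higher, where 26.9% of all tested probe sets were lower and 37.7% higher. The median log2 difference of the tested members was -1.144 in columella against 0.167 for all tested probe sets, and it was -0.808 over all 46 members without the limit on low signals. In cortex 19 were lower and 0 higher, against 27.9% and 20.3% of all, with a median of -0.608 against -0.114. The named members below the others were 11 of the 12 single-gene probe sets in columella and 6 of 12 in cortex.

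The remaining cell types lay above the mean of the others. That mean held columella and cortex, so the differences here are not independent of the low values there. In epidermis 13 members were higher and 0 lower (21.3% and 30.7% of all tested), with a median log2 difference of 0.588 against -0.141. In endodermis 17 were higher and 0 lower (22.3% and 22.7%), with a median of 0.627 against 0.008, and in stele 14 were higher and 0 lower (19.3% and 15.0%), with a median of 0.634 against 0.003. These 3 counts moved with single arrays, where the columella count stayed at 22 to 26 and the cortex count at 15 to 21 with any array left out. The endodermis count was 5 without endodermis replicate 2 at pH 5.7. The epidermis count was 6 without its own replicate 2, 20 without its replicate 1 and 22 without endodermis replicate 2, and the stele count was 7 without stele replicate 1, all at pH 5.7. Without the 4 arrays of high organelle signal together, when 31 members were tested, 25 members were still lower in columella. In cortex 18 were lower and 1 was higher, and 11, 11 and 23 were higher in epidermis, endodermis and stele. The shares of all tested probe sets in that fit were not counted. Setting all arrays to equal medians moved the median of all tested probe sets in cortex from -0.114 to 0.147 in stele from 0.003 to -0.228, in epidermis from -0.141 to 0.027 and in columella from 0.167 to 0.058. The members' medians kept their side, at -0.349, 0.408, 0.776 and -1.234 in that order.

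**Figure D2:**
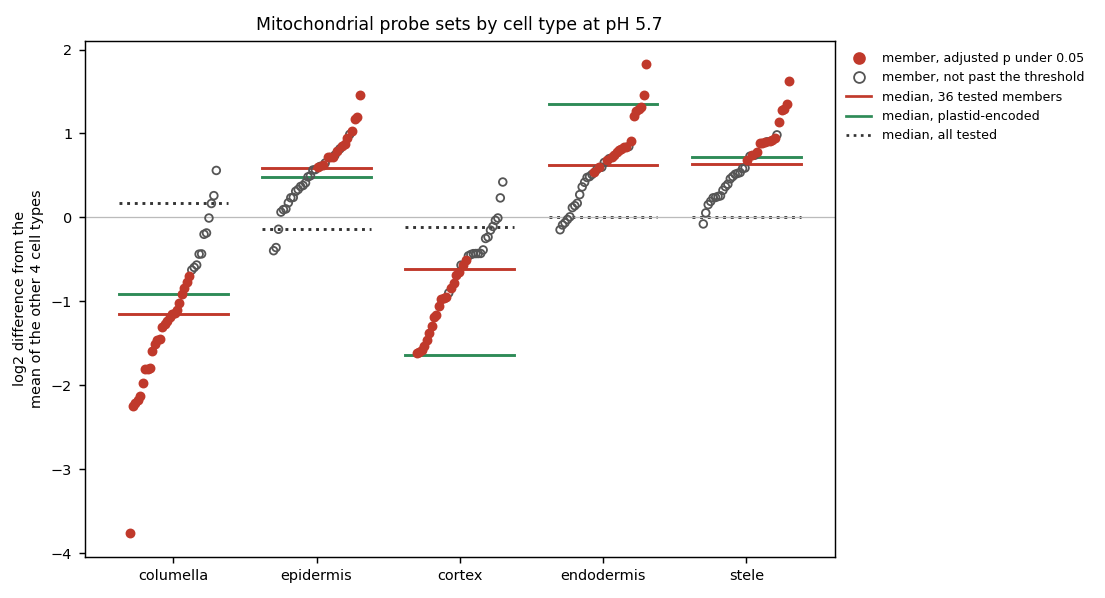
The log2 difference of each of 36 tested members between a cell type and the mean of the other 4 at pH 5.7, sorted within a cell type, with adjusted p under 0.05 filled. Bars are medians: red for the members (-1.144 in columella, -0.608 in cortex), green for 77 plastid-encoded probe sets, dotted for all tested.

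The second question was what 24 h at pH 4.6 did to these transcripts. Averaged over the 5 cell types, 14 of the 36 tested members rose and 0 fell, where 23.2% of all tested probe sets rose and 18.9% fell. The median log2 change of the tested members was 0.265, against 0.004 for all tested, and 0.259 over all 46 without the limit. Those that rose held 6 single genes (nad4L, nad9, cox2, ccmB, ccmFC and ccmFN2), 2 of the chromosome 2 loci and 6 probe sets with no gene in the table. The sign was positive in all 5 cell types for 11 members, and the share of all tested probe sets with that sign was not counted.

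Within single cell types the calls lay mostly in columella and cortex. In columella 9 members rose and 1 fell, against 9.95% and 10.6% of all tested, and the median log2 change was 0.450 against -0.018. Their 3 and 3 signals did not overlap for 15 members that were higher at pH 4.6 and 2 that were lower, where the shares of all tested were 20.2% and 20.9%. In cortex 10 rose and 0 fell (11.6% and 7.51% of all), with a median of 0.527 against 0.017, and 21 members were higher without overlap and 0 lower (21.2% and 15.7%). Of the 10 members called in each of these cell types 6 were the same, or 60% of either set: nad4L, cox2, ccmFC, 244921_s_at, 244931_at and the first probe set of the block, which has no gene in the table. In columella the calls of 244931_at, ccmFC and 244921_s_at were lost under 20 of 42, 14 of 41 and 4 of 41 alternatives (limma, adjusted p up to 0.148, 0.120 and 0.112). Those of nad4L, cox2 and the first probe set passed there under every alternative. In cortex the calls of cox2 and the first probe set were lost under some, as given below. The overlap among all tested probe sets was not counted, so whether 60% is particular to the members cannot be said.

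The other cell types gave few calls. In epidermis 2 rose and 0 fell (6.90% and 3.26% of all), in endodermis 1 rose and 0 fell (9.60% and 6.97%), and in stele 0 rose and 1 fell (4.18% and 2.86%). The medians were 0.344, 0.152 and 0.038 against 0.050, 0.000 and 0.071. The stele median changed sign with the scaling, to -0.029 after quantile normalization and -0.078 with equal medians, where the median of all tested was 0.012 and -0.043. Without the 4 arrays of high organelle signal the counts were 12 risen in columella, 14 in cortex, 2 in epidermis and 0 in endodermis. In stele 1 rose and 1 fell, and none fell elsewhere. That fit tested fewer members, and the shares of all tested probe sets in it were not counted, so these counts have no baseline. The columella count was 6 without its replicate 1 at pH 5.7, the endodermis count was 4 without its replicate 2 at pH 5.7, and the cortex count was 6 without its replicate 3 at pH 4.6 and 6 without its replicate 1 at pH 5.7.

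**Figure D3:**
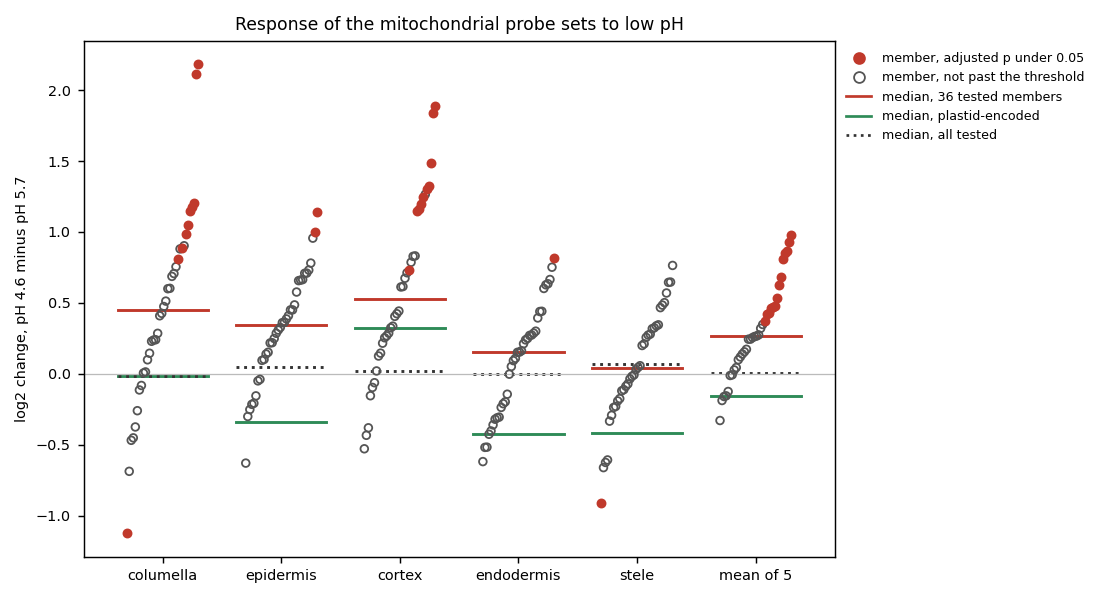
The log2 change from pH 5.7 to pH 4.6 of each of 36 tested members in each cell type and in the mean of the 5, sorted within a column, with adjusted p under 0.05 filled. Bars are medians: red for the members (0.450 in columella, 0.527 in cortex, 0.038 in stele), green for 77 plastid-encoded probe sets, dotted for all tested.

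RNA controls differed between the pH values in several cell types, with and without calls among the members. The 25S rRNA control was 9996 to 10748 in columella at pH 5.7 and 12443 to 14016 at pH 4.6, and 6397 to 9020 and 9798 to 11310 in stele. The log2 ratio of 3 prime to 5 prime GAPDH probe sets, which rises as labelled RNA gets shorter, was lower at pH 4.6, at 2.02 to 2.37 against 2.47 to 3.14 in columella, 1.19 to 1.69 against 2.14 to 2.75 in cortex, 2.10 to 2.49 against 2.72 to 2.93 in endodermis and 1.81 to 1.99 against 2.01 to 2.20 in epidermis. In cortex the ubiquitin ratio was lower too, at 2.04 to 2.40 against 2.69 to 2.92. In cortex the 4 cortex markers were lower at pH 4.6 as well, as given above. The part of these shifts in the members' changes was not tested.

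Among the complex I subunits, nad6 differed most between columella and the rest. Its columella signals at pH 5.7 were 102, 98.1 and 96.7. The group means at the same pH were 1491 ± 480 in epidermis, 1143 ± 296 in cortex, 1424 ± 262 in endodermis and 2194 ± 220 in stele. No array of another cell type came near columella, the lowest being 805 in cortex. The log2 difference of columella from the other 4 was -3.76 ± 0.22 (limma, adjusted p = 7.65e-15), and stele was higher than the others by 1.63 ± 0.22 (adjusted p = 1.05e-06).

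At pH 4.6 the nad6 signals in columella were 480, 628 and 338, all above those at pH 5.7. The log2 change was 2.11 ± 0.28 (limma, adjusted p = 1.89e-06), from 99.0 ± 2.8 to 482 ± 145. Even so, the columella mean at pH 4.6 stayed under every array of the other cell types at either pH. In stele the signals went from 2079, 2447 and 2056 to 1136, 1345 and 1009, again without overlap but downward. The stele change was -0.91 ± 0.28 (adjusted p = 0.0434), and the call was lost with a pseudocount of 1, with quantile normalization, without the limit on low signals and without any single stele array or columella replicate 2 or 3 at pH 5.7. Its adjusted p ran from 0.0119 to 0.148 over the alternatives. In epidermis, cortex and endodermis the changes were 0.10 ± 0.28, 0.22 ± 0.28 and -0.14 ± 0.28, and none passed.

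The test that the 5 pH responses differ passed for nad6 with an adjusted p of 6.55e-05 (limma). It passed under every alternative run, with adjusted p from 1.24e-06 to 0.000623. Its probe set has a shared suffix, so the setting that leaves such probe sets out does not hold it.

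The small membrane subunit nad4L changed in more cell types. Its signals went from 62.1, 82.7 and 65.5 to 140, 195 and 188 in columella, and from 67.3, 72.9 and 79.4 to 245, 175 and 271 in cortex. In epidermis they went from 119, 240 and 160 to 277, 359 and 552. Every array at pH 4.6 was above every array at pH 5.7 in these 3 cell types. The log2 changes were 1.18 ± 0.29 (adjusted p = 0.00394), 1.49 ± 0.29 (adjusted p = 0.000433) and 1.14 ± 0.29 (adjusted p = 0.0114) in limma's fit. The epidermis call was lost in a fit to its own 6 arrays and without epidermis replicate 3 at pH 4.6 or replicate 1 or 3 at pH 5.7, with adjusted p up to 0.0918.

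In endodermis and stele nad4L overlapped between the pH values. The means went from 162 ± 67 to 282 ± 123 in endodermis and from 213 ± 44 to 272 ± 68 in stele, with adjusted p of 0.0758 and 0.570. Averaged over the 5 cell types, nad4L rose by 0.98 ± 0.13 on the log2 scale (limma, adjusted p = 6.85e-07), the largest rise among the members that passed the mean test. A test of different responses between cell types did not pass for it, with adjusted p = 0.236. At pH 5.7 it was lower in columella by -0.91 ± 0.23 and in cortex by -0.84 ± 0.23, and higher in stele by 0.89 ± 0.23, each against the other 4 cell types.

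The other 3 complex I members had no pH change past the threshold in a single cell type, and nad9 rose in the mean response. For nad4, a core membrane subunit, the pH 5.7 means were 397 ± 74 in columella and 373 ± 37 in cortex, and 1757 ± 1432, 2428 ± 1704 and 1758 ± 1077 in epidermis, endodermis and stele. One array stood well above the other two in epidermis (3368, replicate 2) and in endodermis (4379, replicate 2), and the 3 stele signals were spread from 741 to 2887. Its log2 differences were -1.51 ± 0.38 in columella and -1.60 ± 0.38 in cortex (limma, adjusted p = 0.000938 and 0.000867), and 1.46 ± 0.38 in endodermis (adjusted p = 0.00214). Without endodermis replicate 2 at pH 5.7 the endodermis difference was 0.93 and its call was lost (adjusted p = 0.0804). No pH change of nad4 passed the test, and its mean response was -0.12 ± 0.21.

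For nad9, a subunit of the peripheral arm, columella signals were 78.6, 51.9 and 75.2 at pH 5.7 and 141, 184 and 98.4 at pH 4.6. The groups did not overlap, and the log2 change of 0.90 ± 0.33 missed the threshold (limma, adjusted p = 0.0552). Its mean response of 0.37 ± 0.15 passed narrowly, with an adjusted p of 0.0470 that ran from 0.0181 to 0.104 over the alternatives. Alternatives that lost the call included quantile normalization, equal medians, a pseudocount of 55.3, no limit on low signals and leaving out any of 19 single arrays. At pH 5.7 nad9 was lower in columella by -2.18 ± 0.26 and higher in stele by 1.28 ± 0.26. For nad7, of the same arm, 2 of 3 columella signals at pH 5.7 lay under the pseudocount (4.28, 21.4 and 4.58), and at pH 4.6 they were 39.7, 18.4 and 23.5. No pH change of nad7 passed, and it was lower in columella than in the others at pH 5.7 (adjusted p = 0.000194).

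**Figure D4:**
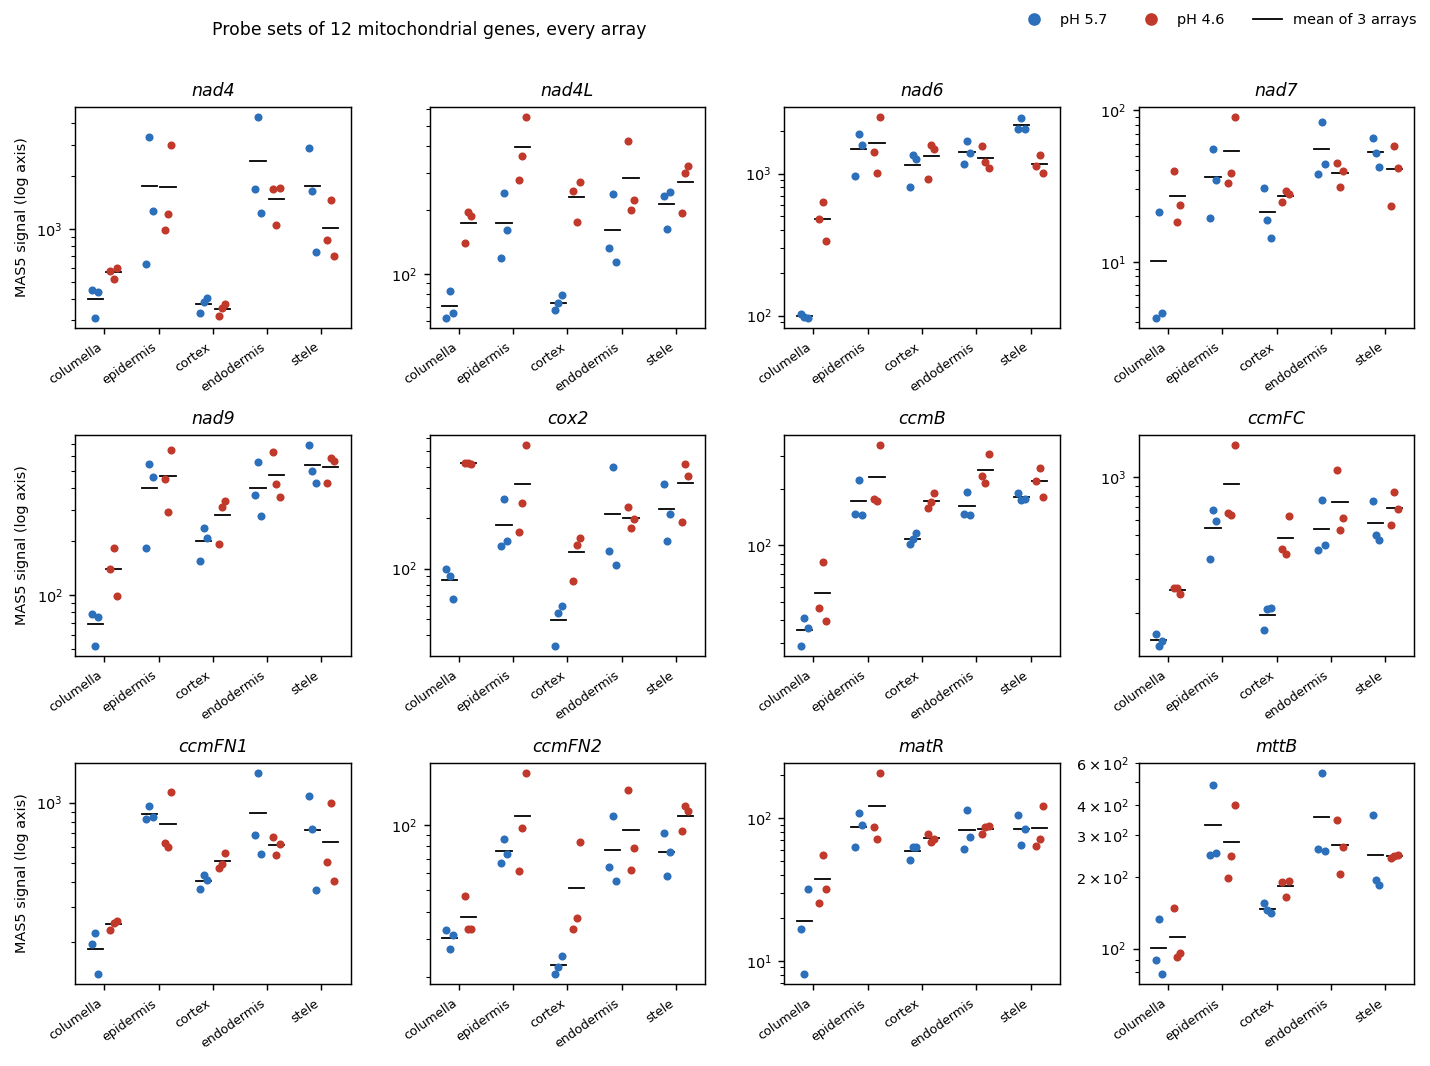
MAS5 signal (log axis, a scale of its own in each panel) of the 12 probe sets with a single mitochondrial gene on every array, by cell type and pH, with the mean of 3 arrays as a bar. In columella nad6 lies at 96.7 to 102 at pH 5.7 and cox2 at 422 to 426 at pH 4.6.

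The complex IV subunit cox2 carries a copper centre that accepts electrons from cytochrome c. Its columella signals were 100.1, 90.2 and 65.5 at pH 5.7 and 425, 426 and 422 at pH 4.6. The rise was 2.18 ± 0.39 on the log2 scale (limma, adjusted p = 0.000135) and passed under every alternative, with adjusted p from 3.85e-07 to 0.00176. It brought columella, at 424 ± 2.1, above the pH 4.6 means of epidermis (319 ± 200), stele (321 ± 118), endodermis (201 ± 30) and cortex (126 ± 36), although single arrays of epidermis and stele reached 546 and 417.

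In cortex cox2 went from 34.7, 54.4 and 59.7 to 84.9, 139 and 153. These signals did not overlap, and the change was 1.15 ± 0.39 (limma, adjusted p = 0.0381). The cortex call was lost with a pseudocount of 55.3, with quantile normalization, without the limit on low signals and without replicate 2 or 3 at pH 4.6 or replicate 1 or 2 at pH 5.7, with adjusted p up to 0.157. No other single cell type passed, and the mean response was 0.93 ± 0.17 (adjusted p = 9.12e-05). The test of different responses gave an adjusted p of 0.0684. At pH 5.7 cox2 was lowest in cortex, by -1.46 ± 0.31 against the others (adjusted p = 0.000275), and its columella difference of -0.63 ± 0.31 did not pass, the one exception among the 12 genes.

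Set against the mean of the other cell types at pH 5.7, the 4 cytochrome c maturation members were all lower in columella and all higher in epidermis. The mean set against epidermis held the low columella values. The log2 differences in columella ran from -1.80 for ccmB and ccmFN1 to -0.70 for ccmFN2, and those in epidermis from 0.61 to 0.95. Without epidermis replicate 2 at pH 5.7 the epidermis calls of ccmB and ccmFC were lost (limma, adjusted p = 0.0874 and 0.0523). The epidermis call of ccmFN2 was lost without any single epidermis array of pH 5.7, endodermis replicate 3 or stele replicate 2 at that pH, with a pseudocount of 55.3 and without the limit on low signals (adjusted p up to 0.133). Its columella call was lost without columella replicate 2 at pH 5.7 (adjusted p = 0.0592). Those of ccmFN1 in both cell types, and of ccmB and ccmFC in columella, passed under every alternative run. In cortex ccmFC and ccmFN2 were lower, by -0.97 ± 0.23 and -1.06 ± 0.24 (limma, adjusted p = 0.000865 and 0.000597), and ccmB, at -0.11 ± 0.19, and ccmFN1, at -0.43 ± 0.26, did not pass.

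At low pH 3 of these 4 rose in the mean response: ccmFC by 0.68 ± 0.13, ccmB by 0.46 ± 0.11 and ccmFN2 by 0.43 ± 0.14 (limma, adjusted p = 9.24e-05, 0.00077 and 0.0116). The fourth, ccmFN1, had -0.01 ± 0.14. In plants the protein that bacteria make as CcmF is split into such pieces, and ccmFN1 and ccmFN2 are both parts of it. In single cell types ccmFC alone passed. Its cortex signals went from 163, 210 and 212 to 424, 403 and 632. That log2 change of 1.25 ± 0.29 (limma, adjusted p = 0.00236) passed under every alternative that held its probe set. Its columella signals went from 156, 136 and 143 to 268, 268 and 250, without overlap, and that change of 0.81 ± 0.29 lay near the threshold (adjusted p = 0.0460, from 0.000791 to 0.120 over the alternatives). Alternatives that lost it included a pseudocount of 55.3, no limit on low signals and leaving out any single columella array. It was also lost without some single arrays of epidermis, cortex and stele.

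For matR, the maturase encoded within a mitochondrial intron, columella signals at pH 5.7 were 16.8, 8.09 and 31.8, and the group means elsewhere lay between 58.7 and 86.7. Columella was lower by -1.59 ± 0.25 (limma, adjusted p = 2.51e-06). For mttB, a TatC-like membrane protein, the columella mean was 100.3 ± 29 and the other means 147 to 355, with a difference of -1.23 ± 0.23 (adjusted p = 4.23e-05). Neither passed for any pH change, and their mean responses were 0.27 ± 0.14 and -0.01 ± 0.13. The probe set shared by rps3 and rpl16 was at 171 ± 22 in columella and 256 ± 62 in cortex at pH 5.7, against 1055 ± 641, 1885 ± 1003 and 1344 ± 465 in epidermis, endodermis and stele. It was lower in columella by -2.25 ± 0.29 and in cortex by -1.58 ± 0.29, and higher in endodermis by 1.83 ± 0.29. It had no pH change past the threshold.

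In the order of named genes on the mitochondrial record of TAIR10.1, cox2, ccmB, rps3, rpl16 and nad9 follow one another. Their columella changes at low pH were 2.18 ± 0.39 for cox2, 0.47 ± 0.24 for ccmB, 0.24 ± 0.37 for the rps3 and rpl16 probe set and 0.90 ± 0.33 for nad9. Of these cox2 alone passed.

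Several members with no gene in the table rose as well. For the first probe set of the block, columella signals went from 79.1, 86.6 and 49.2 to 180, 217 and 141, and cortex signals from 81.7, 95.2 and 95.05 to 186, 191 and 289. In both cell types every pH 4.6 array was above every pH 5.7 array, with log2 changes of 1.20 ± 0.31 and 1.17 ± 0.31 (limma, adjusted p = 0.00506 and 0.00702). The cortex call was lost without replicate 3 at pH 4.6 (adjusted p = 0.0536). Its mean response was 0.86 ± 0.14 and passed under every alternative. Its epidermis change of 1.00 ± 0.31 passed (adjusted p = 0.0361), and was lost with quantile normalization, with equal medians, in a fit to the 6 epidermis arrays and without any of 4 epidermis arrays (replicates 2 and 3 at pH 4.6, replicates 1 and 3 at pH 5.7).

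The mean response of 244931_at was 0.86 ± 0.14 as well, with cortex signals of 35.9, 40.8 and 29.6 at pH 5.7 and 117, 85.6 and 113 at pH 4.6. That of 244904_at was 0.81 ± 0.24. Its cortex signals were 3.15, 8.30 and 25.1 at pH 5.7, mostly under the pseudocount, and 54.0, 76.2 and 86.0 at pH 4.6. In endodermis the single member that rose was 244910_s_at, from 20.4, 34.3 and 25.3 to 59.4, 40.5 and 69.5 (0.82 ± 0.25, limma, adjusted p = 0.0261). That call was lost in a fit to the 6 endodermis arrays, without the 4 arrays of high organelle signal, and without replicate 1 or 3 of either pH.

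Differences in the pH response between cell types passed for 5 of the 36 tested members, against 12.5% of all tested. The count was 3 without columella replicate 1 at pH 4.6 or replicate 1 or 3 at pH 5.7, epidermis replicate 2 at pH 4.6 or cortex replicate 3 at pH 4.6. Beside nad6 they were 2 probe sets of chromosome 2 loci, 244920_s_at (AT2G07751) and 244922_s_at (AT2G07674), and 2 with no gene, 244921_s_at and 244930_at. For 244920_s_at the columella signals went from 266, 285 and 211 to 474, 644 and 615, which is 1.15 ± 0.25 (limma, adjusted p = 0.00121). Its endodermis signals went from 989, 2023 and 1310 to 942, 708 and 1069, overlapping, a change of -0.62 ± 0.25 that did not pass. For 244921_s_at columella went from 56.6 ± 15 to 130 ± 35 and cortex from 101 ± 7.2 to 284 ± 114, both passing, and endodermis from 477 ± 285 to 359 ± 136, not passing.

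The response of 244922_s_at passed in cortex, where signals went from 5.25, 11.9 and 12.97 to 73.3, 54.9 and 70.4 (limma, adjusted p = 0.000647). In columella its means were 27.2 ± 11 and 23.6 ± 19. The single member that fell in columella was 244930_at, with signals of 30.4, 12.96 and 22.2 at pH 5.7 and 2.45, 7.19 and 0.701 at pH 4.6 (adjusted p = 0.0312), close to or under the pseudocount of 11.9. Its test of different responses gave an adjusted p of 0.0260, and that of 244922_s_at gave 0.0499, from 0.00689 to 0.148 over the alternatives.

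Other probe sets of mitochondrial genes lie outside the numbered block: 7 for nad1, 2 for nad5, 1 for nad2 and 1 for cox1. Of these 11, 10 were tested. In the mean response 5 rose and 0 fell (23.2% and 18.9% of all tested), with a median log2 change of 0.365. At the control pH 7 were lower in columella and 7 in cortex, against 26.9% and 27.9% of all tested. The nad5 and cox1 probe sets were singled out after their values were seen, as the 3 that rose in columella. The nad5 probe sets went from 39.99 ± 11 to 213 ± 70 and from 114 ± 23 to 431 ± 24, changes of 2.10 ± 0.35 and 1.84 ± 0.32 (limma, adjusted p = 5.15e-05 and 1e-04). That of cox1 went from 257 ± 40 to 590 ± 95, a change of 1.16 ± 0.40 (adjusted p = 0.0353).

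Plastid-encoded genes, the transcripts of the other organelle genome, were likewise lower in columella and cortex and higher in endodermis and stele. Of 77 such probe sets, all tested, 40 were lower in columella and 68 in cortex at pH 5.7, while 67 were higher in endodermis and 28 in stele. The shares of all tested probe sets were 26.9%, 27.9%, 22.3% and 19.3% in that order. In epidermis 9 of 77 were higher, or 11.7%, which is under the 21.3% of all tested probe sets. Their median log2 differences were -0.906 in columella and -1.634 in cortex, so cortex was the lower of the pair for plastid genes and columella for the mitochondrial members (-0.608 in cortex, -1.144 in columella). At low pH 0 of the 77 passed in any single cell type, with 3 or 4 in each cell type at an unadjusted p under 0.05 in limma's fit. In the mean response 4 fell and 0 rose, with a median of -0.157, where 14 members rose and 0 fell with a median of 0.265. In cortex the plastid probe sets went the same way as the members, with a median of 0.326 and 62 of 77 positive. There 25 were higher without overlap and 2 lower, against 21.2% and 15.7% of all tested. The plastid medians in columella, epidermis, endodermis and stele were -0.012, -0.343, -0.423 and -0.418. The 2 sets were measured on the same arrays, and the difference between them was not tested.

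Nuclear genes for subunits of the respiratory chain gave a baseline from outside the organelle. Of 46 listed loci 24 had a tested probe set. In the mean response 3 rose and 4 fell, or 29.2% together, where 23.2% of all tested probe sets rose and 18.9% fell. The risers were SDH1-1, the flavoprotein of complex II, at 0.60 ± 0.06 (limma, adjusted p = 1.05e-08), SDH2-2, its iron-sulfur subunit, at 0.22 ± 0.09, and AT5G61310, a COX5c-type subunit of complex IV, at 0.72 ± 0.12. Those that fell were the complex I genes FRO1 and AT5G47890, AT2G47380, another COX5c-type gene, and AT1G51650, for the epsilon subunit of ATP synthase, by -0.30 ± 0.07, -0.23 ± 0.08, -0.31 ± 0.07 and -0.22 ± 0.09. In columella 0 of the 24 passed at low pH, where 20.5% of all tested did, with 4 at an unadjusted p under 0.05 in limma's fit. Of the mitochondrial members for respiratory chain subunits, nad4L, nad6 and cox2 rose there, and nad4, nad7 and nad9 did not pass.

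By cell type at pH 5.7, 17 of the 24 nuclear genes were lower in columella and 2 higher, with a median log2 difference of -0.611. Of all tested probe sets 26.9% were lower there and 37.7% higher. In cortex 12 of the 24 were higher and 1 lower (20.3% and 27.9% of all tested), with a median of 0.341. There 19 mitochondrial members were lower and 0 higher. By these counts the nuclear list and the mitochondrial members went the same way in columella and opposite ways in cortex, and the difference between the lists was not tested.

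**Figure D5:**
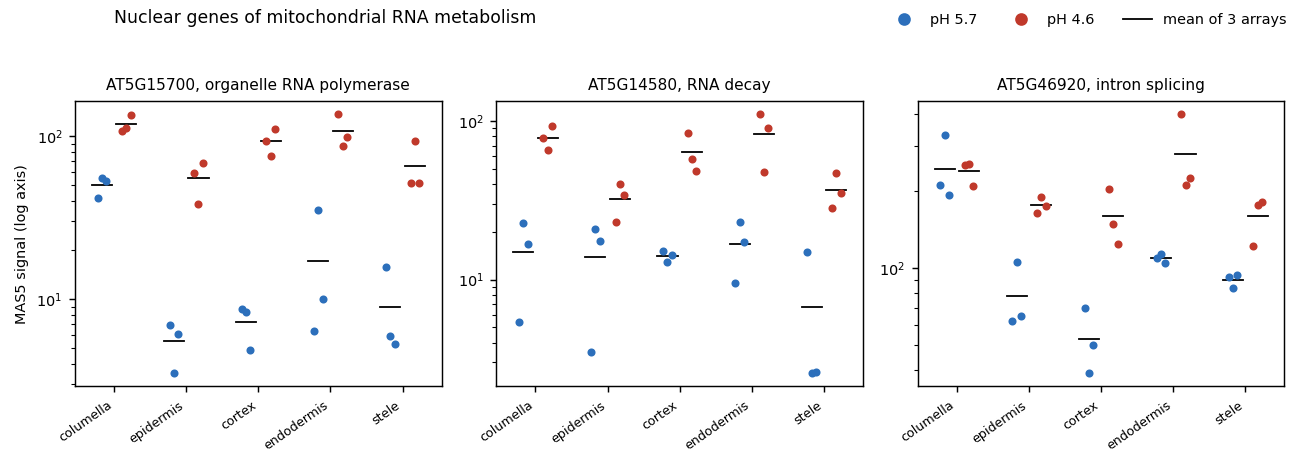
MAS5 signal (log axis) on every array of 3 nuclear genes for mitochondrial RNA metabolism, by cell type and pH, with the mean of 3 arrays as a bar. For AT5G15700 every pH 4.6 array lies above every pH 5.7 array of the same cell type, and for AT5G46920 columella is the one cell type where the means stay level (244 and 239).

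Of 20 listed loci for organelle RNA polymerases and for mitochondrial RNA decay, splicing and end processing, 7 had a tested probe set. In the mean response 3 rose and 0 fell, where the shares of all tested probe sets were 23.2% and 18.9%. AT5G15700 encodes RPOTmp, a phage-type RNA polymerase found in mitochondria and plastids. Its signal went from 17.8 ± 19 to 87.8 ± 30 (n = 15 each), a log2 change of 1.89 ± 0.13 (limma, adjusted p = 2.24e-12), and it rose in all 5 cell types. The smallest of these rises was in columella (1.07 ± 0.29), where its signals were 41.7, 55.1 and 53.0 at pH 5.7 and 108, 112 and 135 at pH 4.6. In cortex they went from 8.71, 8.29 and 4.87, under the pseudocount, to 93.0, 75.9 and 111.

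AT5G14580 encodes the mitochondrial polynucleotide phosphorylase, which degrades RNA. It went from 13.3 ± 7.1 to 58.9 ± 27 (n = 15 each), by 1.46 ± 0.15 on the log2 scale (limma, adjusted p = 4.24e-09), and passed in every cell type but epidermis (0.83 ± 0.33, adjusted p = 0.106). AT5G46920 encodes nMAT2, a maturase that helps splice mitochondrial introns, and went from 115 ± 76 to 202 ± 67 (n = 15 each), by 0.89 ± 0.11 (adjusted p = 1.28e-07). It rose in epidermis, cortex and endodermis, missed the threshold in stele (adjusted p = 0.0589) and was level in columella, where its signals of 210, 330 and 193 at pH 5.7 overlapped 252, 254 and 209 at pH 4.6. The other 4 tested genes of this list had mean responses between -0.16 and 0.13 that did not pass. Of 6 loci for mitochondrial DNA maintenance 1 was tested, OSB1, a DNA-binding protein that limits recombination, and it rose by 0.55 ± 0.11 in the mean response (adjusted p = 0.000196) with no single cell type past the threshold.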

How the data were processed

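Per the submitters' processing notes, the authors made the deposited intensity values with MAS5, with no version given. Those notes name no genome build. The TAIR10.1 annotation served here for gene names and gene order, and no coordinates are printed. The deposited intensities had a trimmed mean of 250.0 on each array. RNA was amplified in 2 cycles per the labels. The number of arrays limits precision.

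Signals were taken as log2(signal + 11.9), percentile 25 of all values. The 64 Affymetrix control probe sets were set aside, and 17038 of the other 22746 passed the limit on low signals. The linear model (limma 3.58.1, R 4.3.3) held a mean per group over 30 arrays, and variances were moderated by empirical Bayes along the trend with intensity, with 20 residual and 8.32 prior degrees of freedom. Tests were of the change from pH 5.7 to pH 4.6 within every cell type, of the mean of the 5 changes, an F test of differences among them, and at pH 5.7 an F test across cell types and each cell type minus the mean of the others. On simulated data for the columella comparison with 17038 probe sets, 44 of 100 changes of log2 size 1 and 96 of 100 of size 2 were recovered, with 5 false calls. The simulation drew noise independently for each probe set and changed a far smaller share than the 20.5% called in columella. Recovery and false calls in the measured data may therefore differ.

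Members and gene lists were chosen with earlier results of these data known. Named members were those with a single gene of known product and, by a rule of size, those with the largest changes past the threshold, the smallest p for differing responses, or, for the nuclear lists, up to 4 with the largest mean response. Signals of different probe sets were not compared. Alternatives were other pseudocounts, quantile normalization, equal medians, no limit and a stricter limit on low signals, a replicate block, robust moderation, array weights, 6-array fits, no probe sets of shared suffix, and leaving out each array. Leaving out 4 arrays together was chosen after seeing the data. No 2 arrays held identical values.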

Additional observations from a re-analysis of the deposited data

Results flagged for a closer look

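The pH response differed between the 5 cell types for 5 members by limma's F test of the differences, adjusted over all tested probe sets. That is 13.9% of the tested members, near the 12.5% of all tested probe sets. For nad6 the adjusted p was 6.55e-05, with a rise in columella on 3 of 3 arrays and a fall in stele on 3 of 3. The call of that fall was lost under several alternatives, as given above. For 244920_s_at the adjusted p of the F test was 0.00759 (0.00122 to 0.03 over the alternatives), with a rise in columella. For 244921_s_at it was 0.0207 (0.000569 to 0.0515, past the threshold except without cortex replicate 3 at pH 4.6), with rises in columella and cortex. For 244930_at, whose signals lie near the pseudocount, it was 0.0260 (0.00675 to 0.0620 over the alternatives that tested it). That p was over the threshold without columella replicate 1 or 3 at pH 4.6 or replicate 3 at pH 5.7. This probe set lay above the limit on low signals on 3 arrays only. It was scored under 36 alternatives, where nad6 was scored under 40. For 244922_s_at the adjusted p of the F test was 0.0499 (0.00689 to 0.148), with a rise in cortex.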

How the results depend on the processing

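Of 114 named changes past the threshold, 68 kept their call under every alternative that held their probe set, and 0 reversed. An alternative that left a probe set out, or did not test it, was not scored for it. The counts of members called moved by over 1.5 times as follows. Without probe sets of shared suffix (fewer members tested) the counts were 16 in columella, 11 in cortex, 9 in endodermis and 5 in epidermis against the other cell types, 17 across cell types, 1 for differing pH responses, 9 in the mean response, and 6, 6, 0 and 0 for pH in columella, cortex, endodermis and stele. Array weights gave 9 for differing responses, 16 for pH in cortex and 2 in endodermis. Equal medians gave 23 in epidermis and 9 in stele by cell type and 1 for pH in epidermis. Quantile normalization gave 1 for pH in epidermis and 0 in stele, the pseudocount of 55.3 gave 6 in columella, and a pseudocount of 1 and no limit on low signals gave 0 in stele. The limit at percentile 60 gave 0 for pH in endodermis, and 6-array fits gave 0 in endodermis and epidermis. Without the 4 arrays of high organelle signal the counts were 11 in endodermis and 23 in stele by cell type, and 0 in endodermis and 2 in stele for pH. Unless named in the sentence, the cause was not tested. Shares of all tested probe sets under the alternatives were not counted.

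Leaving out each array gave 22 to 26 in columella, 15 to 21 in cortex, 5 to 19 in endodermis, 6 to 22 in epidermis and 7 to 19 in stele by cell type, and 26 to 29 across cell types. For pH it gave 6 to 12 in columella, 6 to 12 in cortex, 0 to 4 in endodermis, 0 to 2 in epidermis, 0 to 1 in stele, 12 to 17 in the mean and 3 to 5 for differing responses. Counts of 1 or 2 therefore rest on single arrays.

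Over 15 same-numbered pairs the correlation of deviations ran from -0.135 to 0.211, with 6 over 0.1. In epidermis all 3 pairs were over 0.1 (0.121 to 0.181), where the block left both pH calls. In no other cell type were all 3 over 0.1, although single pairs reached 0.211 in cortex, 0.195 in endodermis and 0.189 in stele. Whether the numbers pair the samples there cannot be told from these values. A replicate block gave 10 for pH in columella, 10 in cortex, 2 in epidermis, 1 in endodermis, 1 in stele, 13 in the mean and 5 for differing responses, and 25, 18, 15, 17 and 14 for columella, cortex, epidermis, endodermis and stele by cell type, with 28 across cell types. Of the named calls, it ended those of ccmFC for pH in columella, of nad9 in the mean response and of mttB in cortex by cell type. Signals near 11.9 limit what can be read from the dim members.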
